A study of Mus musculus with 14 samples.

Results

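Histone genes were described across 8 groups of mouse cells measured on 14 Illumina bead arrays. They were the genes whose symbol, in the table that pairs array probes with genes, begins as a histone H1, H2A, H2B, H3, H4 or macroH2A name. The rule gave 59 of the 16593 genes with a probe, measured by 66 probes. By symbol, 51 were replication-dependent histones and 8 were variant histones, namely H1f10, H1f7, H1f8, H2ax, H2az1, H3f3a, H3f3b and Macroh2a1. A gene was tested where at least 2 arrays detected its probe, with 0.01 as the limit on the detection p, and 49 passed, 43 replication-dependent and 6 variant.

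All cells were of C57BL background. The groups were embryonic germ cells (EG, 2 arrays), a pluripotent cell type derived from primordial germ cells, and 2 sets of EG-like cells induced by hypoxia (hiEGL1 and hiEGL2, 2 arrays each), called lines here. Embryonic stem cells (ESC) came from a male and a female line (ESCm and ESCf, 2 arrays each), epiblast stem cells (EpiSC) from 2 lines with 1 array each (EpiT9 and EpiE3), and primordial germ cells, the precursors of gametes, from embryos at 11.5 days post coitum (PGC11.5, 2 arrays). Only the hiEGL lines are labelled as cultured in hypoxia. For ESCm and ESCf the cell-type field reads embryonic germ cells, against their sample titles, and the titles decided the group here. The labels do not place replicates in separate cultures or animals, so p-values measure the spread between replicate arrays, which may be technical. EpiT9 and EpiE3, with 1 array each, add nothing to that spread.

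Replication-dependent histone genes lie in clusters, are transcribed in S phase when new chromatin is built, and mostly give mRNAs that end in a stem-loop in place of a poly(A) tail. Variant histones are made throughout the cell cycle from genes outside those arrangements, their mRNAs carry poly(A) tails, and they mark particular chromatin, as H3.3 and H2A.Z do at active genes and macroH2A does on the inactive X chromosome. H1f7 and H1f8 are linker histones of the testis and the oocyte.

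Promoters of the genes that the results turn on are shown first, because the clustered genes share short promoter elements. RefSeq (build GRCm38.p6) placed 41 replication-dependent members on chromosome 13 and 6 on chromosome 3, and gave a promoter for 54 of the 59 genes. Each sequence is the 150 bases before the transcription start, and capitals mark matches to 4 motifs on either strand. CCAAT is the box bound by NF-Y. The TATA box was searched as TATAAA. The octamer bound by Oct1 was searched as ATTTGCAT. An element of H1 promoters was searched as AAACACA. These motifs may overlap each other. The 6 genes are the rises of the hypoxia-derived lines (H1f2, H2ac18 and H2bc6), an H2B and an H4 gene higher in ESCf (H2bc9 and H4c6), and 1 variant for contrast (H3f3a). H2bc6 has 2 listed starts, of which the one nearer the gene was used.
H1f2, chr13:23738657-23738806, plus strand: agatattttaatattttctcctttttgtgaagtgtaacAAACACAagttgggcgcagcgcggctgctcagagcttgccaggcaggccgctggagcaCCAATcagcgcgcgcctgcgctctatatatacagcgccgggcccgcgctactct
H2ac18, chr3:96245347-96245496, plus strand: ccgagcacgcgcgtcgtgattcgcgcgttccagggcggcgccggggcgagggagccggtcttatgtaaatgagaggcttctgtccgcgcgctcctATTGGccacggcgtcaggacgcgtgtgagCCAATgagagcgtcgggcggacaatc
H2bc6, chr13:23585971-23586120, minus strand: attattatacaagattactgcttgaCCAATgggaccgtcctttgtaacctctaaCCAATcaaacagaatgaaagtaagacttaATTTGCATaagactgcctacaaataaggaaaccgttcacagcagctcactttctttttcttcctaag
H2bc9, chr13:23543445-23543594, minus strand: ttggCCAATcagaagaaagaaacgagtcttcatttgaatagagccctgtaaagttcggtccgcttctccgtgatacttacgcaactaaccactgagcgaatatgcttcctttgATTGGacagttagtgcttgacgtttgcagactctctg
H4c6, chr13:23551669-23551818, minus strand: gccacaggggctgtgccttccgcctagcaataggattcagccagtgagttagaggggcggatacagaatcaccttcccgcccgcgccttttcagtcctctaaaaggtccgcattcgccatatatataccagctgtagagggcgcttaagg
H3f3a, chr1:180813606-180813755, minus strand: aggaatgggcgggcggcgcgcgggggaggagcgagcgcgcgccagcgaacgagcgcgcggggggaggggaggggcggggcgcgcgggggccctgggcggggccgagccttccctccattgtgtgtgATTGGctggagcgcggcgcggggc

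The families differed in these elements. Within 250 bases before the start, CCAAT was found in 39 of 47 replication-dependent genes (83.0%) and in 37.5% of all 27025 RefSeq genes in the table. TATAAA was found in 51.1% of the former and 14.3% of the latter. ATTTGCAT was found in 27.7% and 1.81%, all in H2A (6 of 14 genes) and H2B (7 of 11) and in no H1, H3 or H4 promoter. AAACACA was found in 5 of 6 H1 promoters and in 7.2% of all genes, and CCAAT in only 2 of 9 H4 promoters. An H2A and an H2B gene face away from each other at 6 places, with starts 164 to 281 bases apart, so these pairs share much of their windows and are not independent counts. A match describes letters in these windows and is not a shown binding site.

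The arrays were not alike in depth. Between 29.8% and 45.4% of 25697 probes were detected per array, and the brightest signal was 11270 to 17938 on EG and hiEGL arrays, at least 40718 on ESC arrays, 26734 and 27441 on EpiSC arrays and 14621 and 25879 on PGC11.5 arrays. Across the tested histone genes, replicate arrays had r = 0.994 to 0.998, but 0.986 in PGC11.5, whose arrays differed by 2-fold or more in 4 genes. The labels describe an amplification and a second one for every sample, and which array received which is not given in the sources used here. Levels below are background-corrected, quantile-normalized log2 intensities, and a probe's level is compared only with the same probe on other arrays. In these bulk samples, fewer cells of a type and less RNA per cell cannot be told apart. Histone genes have near-identical copies, and how far a probe also binds the RNA of other copies was not tested.

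The number of histone genes detected differed widely between groups, and the difference lay in the replication-dependent class. All arrays of a group detected 18 of the 51 replication-dependent genes in EG, 18 in hiEGL1 and 17 in hiEGL2. The counts were 35 in ESCm, 39 in ESCf, 39 in EpiT9, 39 in EpiE3 and 27 in PGC11.5. In every group 6 of the 8 variants were detected, all but H1f7 and H1f8, which were not detected on any array, PGC11.5 included. Over all 16593 genes the detected share ran from 31.4% in PGC11.5 through 35.4% to 37.6% in EG and hiEGL to 48.6% in EpiT9, so PGC11.5 detected fewer genes in all than EG and yet more replication-dependent histones. EpiT9 and EpiE3 have 1 array each, which makes detection on every array an easier condition there. The lowest detected level was 5.75 to 6.07 on EG and hiEGL arrays and 6.08 and 5.63 on PGC11.5 arrays. It was 5.05 to 5.26 on ESC arrays and 4.86 and 5.04 on EpiSC arrays, so the counts depend on these limits too. H3c8, for example, was undetected in EG at 5.39 and 5.33 and detected in ESCm at 5.24 and 5.41.

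**Figure D1:**
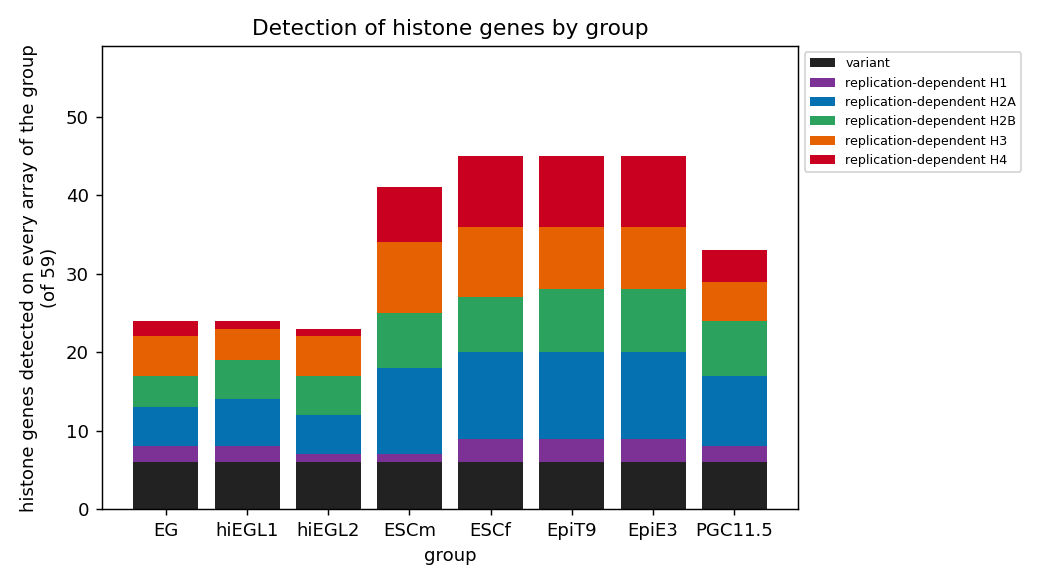
Histone genes (of 59) detected on every array of each group, on the vertical axis, stacked by class and family, with 2 arrays a group and 1 for EpiT9 and EpiE3. Variants contribute 6 in every group, and the totals are 24, 24 and 23 in EG, hiEGL1 and hiEGL2 and 33 to 45 in the others. The lowest detected level differs between arrays and is higher on EG and hiEGL than on ESC and EpiSC arrays.

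Of the replication-dependent genes, 14 were detected on all 14 arrays and 7 on none (H1f3, H1f4, H1f6, H2ac1, H2ac6, H2bc1 and H2bc8). A block of 9 (17.6%) was detected on all 8 ESC, EpiSC and PGC11.5 arrays and on none of the 6 EG and hiEGL arrays, as was 1.91% of all genes. These were H2ac7, H2ac11, H2ac12, H2ac15, H2bc7, H2bc9, H2bc15, H4c6 and H4c8. No replication-dependent histone was the other way round. The median level of the 43 tested was 4.89 to 5.18 on the EG and hiEGL arrays and 7.18 to 8.54 on the others, with both ESCf arrays at the top (8.50 and 8.54). For the 6 variants the median was 8.04 to 9.56 and 10.50 to 11.76, so the same arrays were low in both classes.

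Single probes of one gene fell on either side of this divide. H1f10, H3c14 and H3f3a each have a probe detected on all 14 arrays and a second detected only on the 8 ESC, EpiSC and PGC11.5 arrays. H2bc4 has a probe detected on all 14 arrays and a second detected on none. The second H3f3a probe, ILMN_3066986, stood at 4.24 to 4.42 on the EG and hiEGL arrays and at 5.92 to 7.96 on the others. Differences between EG or hiEGL and the other groups therefore depend on the probe, and cell type cannot be told apart there from whatever else separates the 2 sets of arrays.

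**Figure D2:**
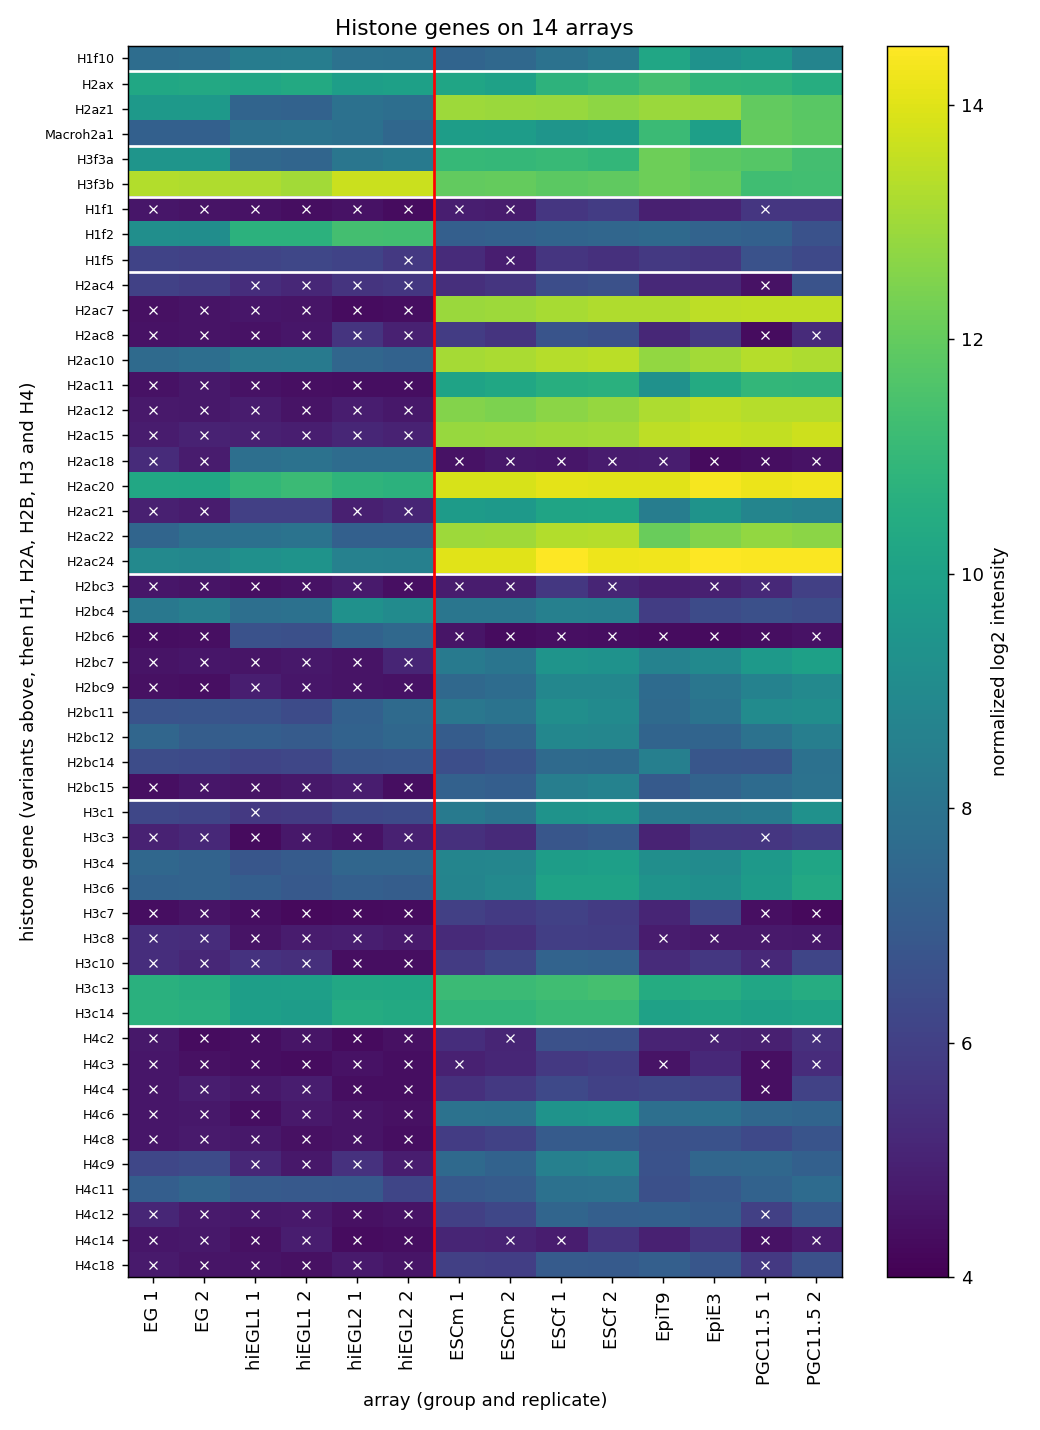
Normalized log2 intensity (colour) of the 49 tested histone genes (rows, variants above, then replication-dependent H1, H2A, H2B, H3 and H4, set apart by white lines) on 14 arrays (columns), with a cross where the probe was not detected. The red line sets EG and hiEGL arrays, with crosses in most H4 rows, apart from the other 8 arrays.

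The hypoxia-derived lines were compared with EG cells, their counterpart derived without hypoxia. Most histone genes were not called. However, 22 of the 43 replication-dependent genes tested were detected in neither group. They passed the filter only through other arrays, so their missing calls say little. The largest rises were those of H1f2, H2ac18 and H2bc6, and the largest falls those of the variants H2az1 and H3f3a. Of 43 replication-dependent genes tested, 5 were higher and 6 lower in hiEGL, and of 6 variants 1 was higher and 2 lower, at an adjusted p under 0.05 by limma. Over all 9054 genes tested, 61.8% were called, 28.4% higher and 33.4% lower, and 14 of 49 histone genes were. All hiEGL arrays lay above both EG arrays for 8 histone genes and below them for 13, against 30.7% and 36.7% of all genes. Taken singly, hiEGL1 had 10 higher and 9 lower (58.8% of all genes called, 28.1% and 30.7%), and hiEGL2 had 9 higher and 12 lower (59.2%, 26.5% and 32.7%). Their arrays lay apart from EG for 14 higher and 22 lower histone genes in hiEGL1 (40.3% and 44.3% of all genes) and for 15 and 24 in hiEGL2 (37.8% and 45.7%). The calls of single lines include genes detected on neither side, H3c3 and H3c8 in hiEGL1 and H2ac8, H3c10 and H3c8 in hiEGL2. The median difference was -0.06 for replication-dependent histones and -0.04 for all genes. With arrays scaled to a common median in place of the quantile step, 22 were higher and 4 lower, while the median of all genes moved to 0.38 and that of the replication-dependent histones to 0.56, and 35.8% of all genes were higher and 21.8% lower.

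H2ac18, an H2A gene of the chromosome 3 cluster, and H2bc6, an H2B gene of the chromosome 13 cluster, were detected on the 4 hiEGL arrays and on no other array. Both passed the detection filter only through the lines in which they are high. Their p-values and lack of overlap therefore describe the values and are not independent support. H2ac18 stood at 7.85 and 7.95 in hiEGL1 and at 7.72 and 7.73 in hiEGL2, against 5.30 and 4.82 in EG and 4.31 to 4.83 on the other 8 arrays. It was at least 3.97-fold higher in hiEGL than in EG (log2 difference 2.75 ± 0.16, SE, n = 4 and 2, adjusted p = 1.87e-07). No array of another group reached the lowest hiEGL array.

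H2bc6 stood at 6.65 and 6.58 in hiEGL1, 7.29 and 7.53 in hiEGL2, 4.39 and 4.44 in EG and 4.30 to 4.60 elsewhere. It was at least 2.29-fold higher in hiEGL than in EG (2.60 ± 0.13, SE, n = 4 and 2, adjusted p = 7.61e-08), again without overlap. On the authors' deposited values the differences were 3.68 and 4.68 for H2ac18 and H2bc6, and without background correction 1.18 and 0.93, called in each case.

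H1f2, a somatic linker histone that compacts nucleosome arrays, was detected on all 14 arrays and was highest in the hypoxia-derived lines. It stood at 9.20 and 9.15 in EG, 10.73 and 10.74 in hiEGL1, 11.35 and 11.33 in hiEGL2, and 6.65 to 7.59 on the other 8 arrays. It was 3.63-fold higher in hiEGL than in EG (1.86 ± 0.13, SE, n = 4 and 2, adjusted p = 8.82e-07), and no arrays overlapped between these 3 groups. H2ac20 (1.56-fold) rose as well, and H2ac21 was higher (log2 difference 0.62) with detection on both hiEGL1 arrays only, a call lost when the line was a random block (adjusted p = 0.257).

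The falls were led by variants. H2az1, which encodes H2A.Z, stood at 9.65 and 9.64 in EG, 7.38 and 7.30 in hiEGL1 and 7.92 and 7.80 in hiEGL2. It was 4.13-fold lower in hiEGL (-2.05 ± 0.07, SE, n = 4 and 2, adjusted p = 8.89e-09), and every hiEGL array lay below both EG arrays. H3f3a, one of the genes of histone H3.3, stood at 9.47 and 9.49 in EG, 7.54 and 7.42 in hiEGL1 and 8.12 and 8.27 in hiEGL2.

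H3f3a was thus 3.11-fold lower (-1.64 ± 0.10, SE, n = 4 and 2, adjusted p = 2.33e-07), again without overlap, by the probe that every array detected. Its second probe was not detected in either group. H3f3b, the other H3.3 gene, was not called (log2 difference 0.11, adjusted p = 0.131), and neither were H2ax (-0.19, adjusted p = 0.114) and H1f10 (0.40, adjusted p = 0.0856). Macroh2a1 rose 1.51-fold (0.60 ± 0.11, SE, n = 4 and 2, adjusted p = 0.000609), a call lost when the line was a random block (adjusted p = 0.222).

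The other calls were H3 and H4 genes that were lower in hiEGL. H3c13 (1.43-fold), H3c14 (1.41-fold) and H4c11 (1.43-fold) were detected on all arrays of both groups. H4c9, detected on both EG arrays and no hiEGL array, was at least 1.29-fold lower. H3c3 and H3c8 were called lower without detection on either side, have no fold, and differed by 0.28 and 0.19 with median scaling. When the line was a random block, none of the 6 falls of replication-dependent genes was called, with an adjusted p of 0.0714 for H3c13, 0.0847 for H4c9, 0.13 for H3c8, 0.456 for H4c11 and 0.531 for H3c3. H4c11 also lost its call without either EG array, either hiEGL1 array or hiEGL2 replicate 2 (0.0608 to 0.278). H3c3 lost it without either EG array, hiEGL1 replicate 1 or hiEGL2 replicate 1 (0.0581 to 0.203), and H4c9 with median scaling (0.0808).

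**Figure D3:**
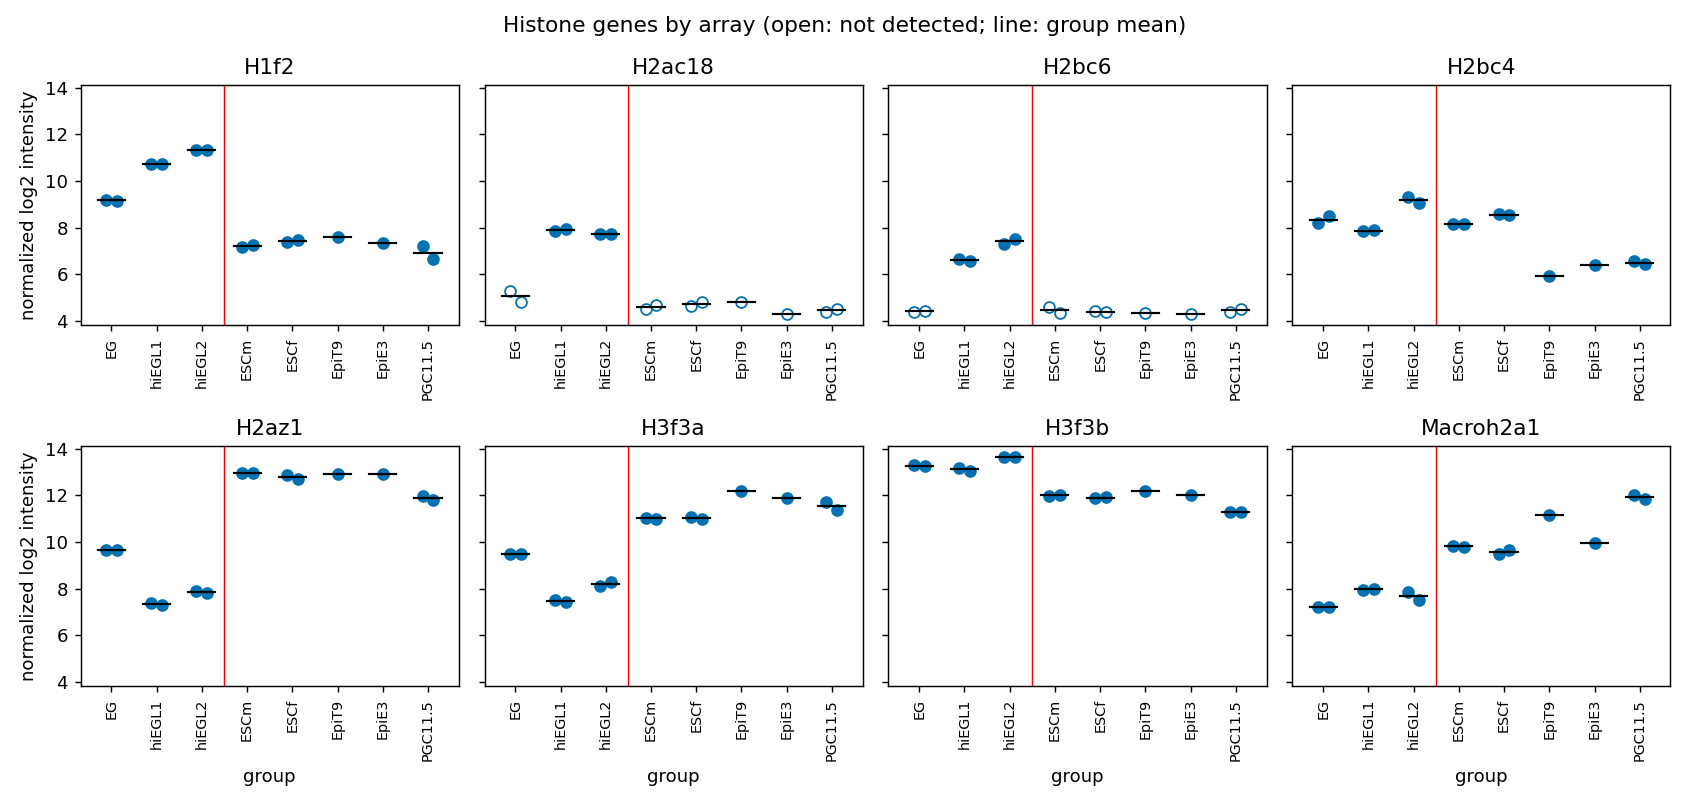
Normalized log2 intensity (vertical axis) of 8 histone genes on each array (points) by group, with group means as black lines, open points where the array did not detect the probe, and a red line between the EG and hiEGL arrays and the rest. H2ac18 and H2bc6 have filled points only in hiEGL1 and hiEGL2, and H1f2 is highest there.

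Genes that act with histones were also measured in this comparison, where 33.4% of all genes were lower and 28.4% higher. Of 24 tested S-phase and replication genes none rose and 19 fell (median -1.11), among them Cdc6, which loads the replicative helicase (-2.05), Mcm3, a helicase subunit (at least 2.2-fold lower), and Tyms, which makes thymidylate (-1.83). Of 20 histone chaperones and assembly factors 1 rose and 12 fell (median -0.42). Nasp, the chaperone that holds the reserve of H3 and H4, differed by -2.43, Chaf1b, of the complex that deposits histones at replication forks, by -2.05, and Anp32e, which removes H2A.Z, by -1.85.

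Of 9 tested genes for the transcription and 3-prime processing of histone mRNA, 1 rose and 4 fell (median -0.36). These were Eri1, an exonuclease that trims histone mRNA ends (0.66), and Zfp473 (-1.37), Ncbp1 (-0.61), Cpsf3 (-0.49) and Cstf2 (-0.36). Markers of other cells moved with the comparison. The summed linear intensity of 8 fibroblast markers was 1120 to 1130 on the EG arrays, 8050 to 8330 on hiEGL1 and 9450 to 9570 on hiEGL2, with 3, 6 and 7 of the 8 detected on all arrays of the group and Postn on none. For 8 gonadal somatic markers the sums were 204 to 224 in EG, with none detected on both arrays, and 3300 to 3810 in hiEGL, with 3 detected on all arrays and Gata4, Nr5a1, Amh, Fst and Lhx9 on none. For 9 pluripotency markers the sums were 40200 to 41100 in EG, with 9 detected on both arrays. They were 10400 to 13800 in hiEGL, with 7 detected on all arrays of each line. Zfp42 was detected on no hiEGL array and Sox2 on no hiEGL1 array. The part of these cells in the histone differences was not tested.

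Line hiEGL2 was compared with line hiEGL1 to see how far the 2 hypoxia-derived lines differed. Some H2B genes and both H3.3 genes were higher in hiEGL2, and several H2A genes were lower. Of 43 replication-dependent genes 7 were higher and 7 lower, and of 6 variants 3 were higher and 1 lower, where 30% of all genes were called, 13.9% higher and 16% lower. Neither line detected 24 of these 43 genes. Of 12 H2A genes 6 were lower and none higher, and of 9 H2B genes 3 were higher and none lower. Among called genes that either line detected, only H2bc4 reached 2-fold. The arrays of the lines did not overlap for 18 histone genes higher and 18 lower, against 34.5% and 39% of all genes. The median was 0.06 for replication-dependent histones and -0.02 for all genes. With median scaling 21 were higher and 4 lower, when the median of all genes was 0.29 and that of the replication-dependent histones 0.72, and 15.7% of all genes were higher and 9.16% lower.

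H2bc4, an H2B gene, led the rises, at 9.31 and 9.08 in hiEGL2 and 7.85 and 7.90 in hiEGL1, or 2.5-fold (1.32 ± 0.13, SE, n = 2 and 2, adjusted p = 8.25e-05). H2bc11 (1.91-fold), H2bc6 (1.74-fold) and H1f2 (1.52-fold) were higher too. H3f3a was 1.64-fold, H3f3b 1.45-fold and H2az1 1.43-fold higher. In each of these the arrays of the 2 lines did not overlap. The call of H2bc6 ended on the authors' deposited values (adjusted p = 0.143) and with median scaling (0.0904), and that of H1f2 with median scaling (0.0936) and without any one of the 4 arrays (0.0697 to 0.0753). The second H3f3a probe was detected in neither line. The second H2bc4 probe was detected on no array, and the mean of its probes differed by 0.74 between the lines.

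Among the falls, H2ac10 stood at 7.46 and 7.31 in hiEGL2 and 8.23 and 8.32 in hiEGL1, or 1.85-fold lower (-0.89 ± 0.09, SE, n = 2 and 2, adjusted p = 9.23e-05). H2ac24 (1.67-fold), H2ac22 (1.65-fold) and H2ac20 (1.21-fold) were lower as well. H2ac21 was detected on both hiEGL1 arrays and no hiEGL2 array, with a log2 difference of -0.98, which median scaling reduced to -0.08 (adjusted p = 0.657). H2ac7 and H3c10 were called lower without detection in either line, and H3c10 lost its call without any one of the 4 arrays (adjusted p = 0.0606 to 0.0861). H2ax, the variant phosphorylated at DNA breaks, was 1.28-fold lower (adjusted p = 0.0329), a call that ended without any one of the 4 arrays (0.0619 to 0.201). Leaving out 1 array gave 11 to 14 calls, with 11 without hiEGL1 replicate 2 and 11 without hiEGL2 replicate 2.

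The chaperone Nap1l1, which carries H2A and H2B, was higher in hiEGL2 by a log2 difference of 1.59, Anp32e by 0.66 and Npm1 by 0.64. Of 20 chaperone genes, 4 rose and 4 fell. S-phase genes also split, 4 higher and 4 lower of 24, and of 9 mRNA processing genes 2 fell, Lsm10 (-0.74) and Eri1 (-0.73).

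The female line ESCf was compared with the male line ESCm. Most replication-dependent H2B, H3 and H4 genes were higher in ESCf, with changes of up to 3.11-fold. Of 43 tested, 26 were higher and none lower, while 19.3% of all genes were called, 10.2% higher and 9.09% lower. Their median difference was 0.78 and that of all genes -0.02. Of 6 variants 1 was called, H2ax. By family, 7 of 9 H2B, 6 of 9 H3, 8 of 10 H4, 4 of 12 H2A and 1 of 3 H1 genes were higher. In 39 of 43 both ESCf arrays lay above both ESCm arrays, as in 30.6% of all genes, and in none did both lie below, as in 34.8% of all genes.

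H2bc12, an H2B gene, rose most, from 7.04 and 7.34 in ESCm to 8.85 and 8.82 in ESCf, or 3.11-fold (1.64 ± 0.19, SE, n = 2 and 2, adjusted p = 0.000362). H3c3, an H3.1 or H3.2 type gene, stood at 5.44 and 5.27 in ESCm and 6.79 and 6.98 in ESCf, or 2.90-fold higher (1.53 ± 0.21, SE, adjusted p = 0.000746). H4c6 stood at 7.96 and 7.92 in ESCm and 9.39 and 9.49 in ESCf, or 2.83-fold higher (1.5 ± 0.15, SE, adjusted p = 0.00014). In all 3 genes the lines did not overlap, and no array of any other group reached the ESCf arrays.

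The other large rises were H2bc15 (2.62-fold), H4c2 (2.57-fold), H3c10 (2.44-fold), H3c1 (2.39-fold), H2bc7 (2.34-fold), H2bc9 (2.33-fold) and H3c6 (2.31-fold). H1f1, an H1 gene, was detected on both ESCf arrays and no ESCm array and was at least 1.61-fold higher (0.91 ± 0.13, SE, n = 2 and 2, adjusted p = 0.00118). The genes tested but not called included H2bc6 (-0.08) and H2ac18 (0.13), which neither line detected, H3c7 (0.02), H4c14 (0.14), H1f2 (0.19), H3c13 (0.19) and H3c14 (0.20). Over all 8 groups, ESCf had the highest group mean for 23 of the 43 genes. The share of all genes that were highest in ESCf was not computed.

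**Figure D4:**
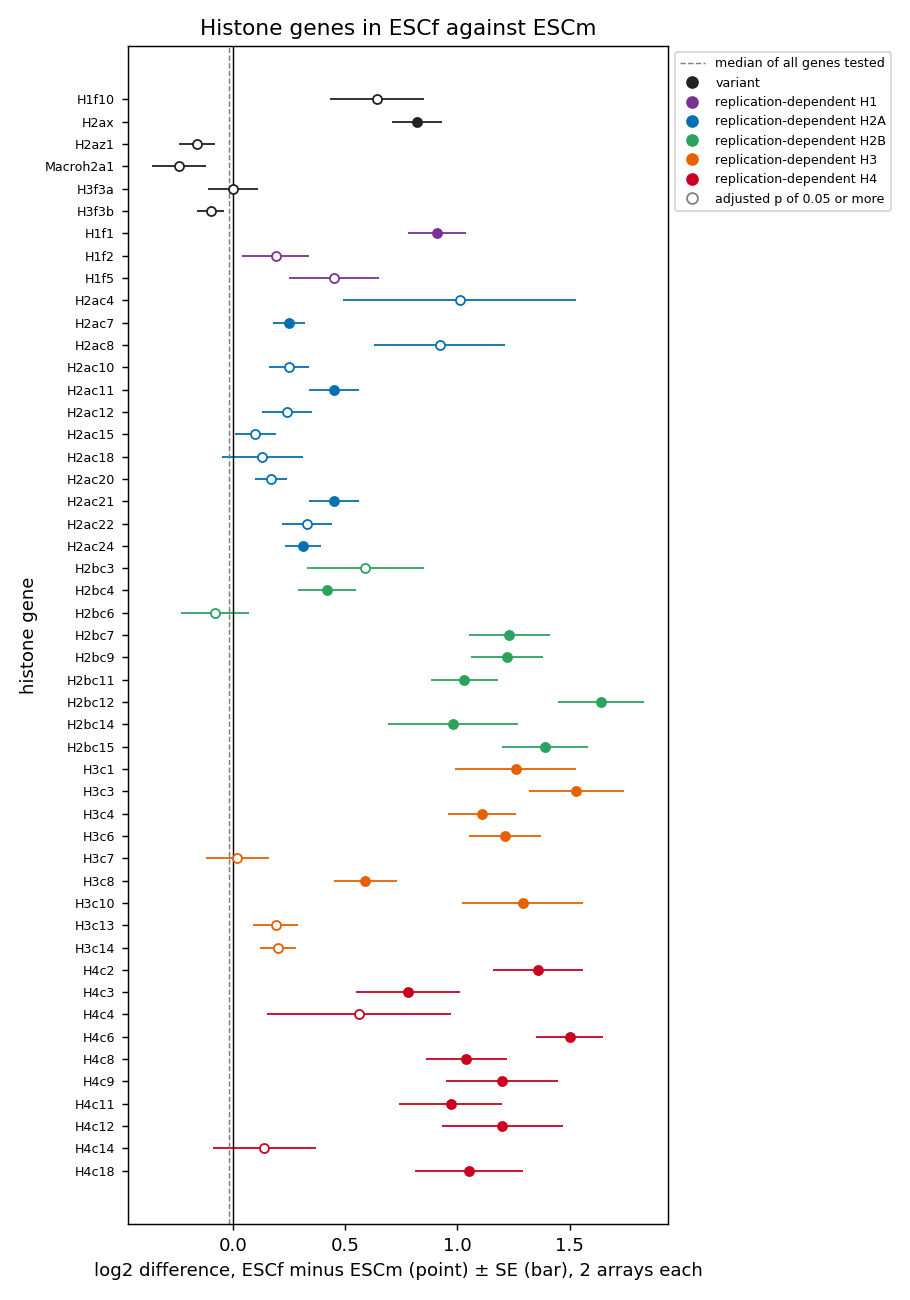
Log2 difference of ESCf minus ESCm (horizontal axis) with its moderated SE for each of the 49 tested histone genes, coloured by class and family and filled where the adjusted p is under 0.05. H2B, H3 and H4 genes reach 1.64, 1.53 and 1.5, and the dashed line is the median of all genes tested (-0.02).

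The H2A genes moved less than the H2B genes beside them. In the pair H2ac12 and H2bc12, whose starts lie 178 bases apart, the differences were 0.24 and 1.64. In H2ac15 and H2bc15 (164 bases) they were 0.10 and 1.39, in H2ac7 and H2bc7 (174 bases) 0.25 and 1.23, and in H2ac11 and H2bc11 (249 bases) 0.45 and 1.03. The H2B member differed more in all 4 pairs with both genes tested. Level moved with this contrast. The 7 genes with an ESCm level of 12 or more, a boundary chosen after the values were seen, were all H2A genes and had a median difference of 0.25 (0.10 to 0.33), against 0.98 (-0.08 to 1.64) for the other 36. Of the 5 H2A genes below the boundary, H2ac4 (1.01) and H2ac8 (0.92) were not called, H2ac11 and H2ac21 rose by 0.45 each, and H2ac18 was not detected. The H3 genes H3c13, at 11.16 in ESCm, and H3c14, at 10.93, differed by 0.19 and 0.20. The part of probe brightness was not tested.

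Of the variants, H2ax rose from a mean of 10.08 in ESCm, the higher array at 10.16, to 10.80 and 10.99 in ESCf, or 1.76-fold (0.82 ± 0.11, SE, n = 2 and 2, adjusted p = 0.000714), without overlap. H2ax has an unusual mRNA that can end in a stem-loop or carry a poly(A) tail. H1f10 differed by 0.64 ± 0.21 (SE, adjusted p = 0.0628), H2az1 by -0.16, Macroh2a1 by -0.24 (adjusted p = 0.207), H3f3b by -0.10 and H3f3a by 0.00, none of them called. With only the 4 compared arrays in the fit, H1f10 and Macroh2a1 were called (adjusted p = 0.00144 and 0.0444).

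Few genes that act with histones rose. Of 24 S-phase genes 2 were higher, E2f1 (0.56) and Cdc45 (0.39), and 3 lower, Ccne1, the G1/S cyclin E1 (-0.76), Rrm1 (-0.29) and Mcm4 (-0.28), with a median of -0.10. Of 20 chaperone genes none rose and 8 fell (median -0.23), led by Nasp (-0.89), Nap1l1 (-0.70) and Hjurp, the chaperone of the centromeric histone (-0.61). Of 9 mRNA processing genes only Cstf2, a subunit of the cleavage machinery, was called (0.50).

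The ESC arrays detected 41.8% and 41.0% of probes in ESCm and 39.9% and 38.7% in ESCf, and the summed level of the pluripotency markers was 40700 to 41800 and 39000 to 40900, with 9 of 9 detected on all arrays in both. Fibroblast markers summed to 564 to 577 and 621 to 697, with 5 of 8 detected on all arrays and Col1a2, Postn and Lum on none in both. Epiblast markers summed to 8890 to 9190 in ESCm and 5750 to 6330 in ESCf, with 2 of 8 called higher and 1 lower. Germ cell markers summed to 1030 to 1110 and 869 to 892, with 2 of 6 tested called higher and 3 lower. The part of these differences between the lines in the histone values was not tested. Leaving out any 1 of the 4 arrays left 14 or 15 histone genes called (14 without ESCf replicate 1, 15 without each of the others), none of them lower. On the authors' deposited values 14 were called, all higher, and H2bc15, H4c2 and H2bc7 missed the threshold (adjusted p = 0.0613, 0.0526 and 0.056). H3c10 and H3c1 each lost their call without 3 of the 4 arrays, H3c10 keeping it without ESCm replicate 2 and H3c1 without ESCm replicate 1.

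Epiblast stem cells, which correspond to the epiblast after implantation, were compared with ESC, which correspond to the epiblast before it. Of the variants, all but H2az1 were higher in EpiSC. The replication-dependent genes called were mostly lower than the mean of ESCm and ESCf. Of 43 replication-dependent genes 5 were higher and 22 lower, and of 6 variants 5 were higher and none lower, with 62.9% of all genes called, 34.5% higher and 28.4% lower. The median was -0.34 for replication-dependent genes and 0.07 for all genes. Among replication-dependent genes, no H1, H2B, H3 or H4 gene was higher, and 1 of 3 H1, 5 of 9 H2B, 6 of 9 H3 and 5 of 10 H4 genes were lower. Of 12 H2A genes, 5 rose and 5 fell. Non-overlapping arrays were seen for 6 histone genes higher and 13 lower, against 34.8% and 28.4% of all genes. The ESC mean includes ESCf, where most H2B, H3 and H4 genes were higher than in ESCm. The median level of the 43 genes was 7.24 in EpiT9 and 7.35 in EpiE3. It was 7.18 and 7.28 on the ESCm arrays and 8.50 and 8.54 on the ESCf arrays. As a class these genes thus stood near ESCm and below ESCf. The SEs and p-values of this comparison take in no spread between EpiT9 and EpiE3, each 1 array with its own mean.

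H2bc4 fell most, at 5.92 in EpiT9 and 6.40 in EpiE3 against 8.14 and 8.14 in ESCm and 8.59 and 8.54 in ESCf. It was 4.58-fold lower (-2.19 ± 0.11, SE, n = 2 and 4, adjusted p = 1.21e-07), and the EpiSC and ESC arrays did not overlap. Its second probe was detected on no array, and the mean of its probes differed by -1.14. H2ac21 was 2.04-fold lower and H3c10 2.24-fold, the latter not called when the line was a random block (adjusted p = 0.0906). H3c14 was 1.96-fold lower at the probe detected everywhere, and its second probe differed by 0.48 (adjusted p = 0.06). H2ac12 (1.64-fold), H2ac15 (1.48-fold) and H2ac7 (1.23-fold) were higher.

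Of the variants, H1f10, a linker histone made outside S phase, stood at 10.23 in EpiT9 and 9.37 in EpiE3 against 7.38 and 7.55 in ESCm and 7.97 and 8.24 in ESCf. It was 4.04-fold higher (2.01 ± 0.18, SE, n = 2 and 4, adjusted p = 6.46e-06), and its second probe gave 2.47. H3f3a stood at 12.19 and 11.87 against 10.97 to 11.06 in ESC, or 2.02-fold higher (1.01 ± 0.10, SE, n = 2 and 4, adjusted p = 8.26e-06). The arrays overlapped in neither gene, but the second probe of H3f3a gave -0.21 (adjusted p = 0.191).

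Macroh2a1 was 1.81-fold higher (0.85 ± 0.11, SE, n = 2 and 4, adjusted p = 5.60e-05), and this rested on EpiT9. It stood at 11.16 in EpiT9 and 9.94 in EpiE3 against 9.47 to 9.85 in ESC, and without EpiT9 the difference was 0.24 (adjusted p = 0.167). H2ax was 1.55-fold and H3f3b 1.11-fold higher, and H2az1 differed by 0.04. The H3f3b call ended without EpiT9 (adjusted p = 0.374), without ESCm replicate 1 (0.0795) and without ESCf replicate 1 (0.0731). The H2ax call was lost when the line was a random block (0.0708). Without EpiT9, 19 histone genes were called in place of 32, and 11 with that block.

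Of 20 chaperone genes 11 were higher in EpiSC and 3 lower, with Rbbp7, a subunit of many histone-binding complexes (1.38), Hjurp (1.02) and Ruvbl2 (0.91) up and Atrx, which places H3.3 with Daxx (-0.83), and Daxx itself (-0.42) down. Of 24 S-phase genes 6 were higher and 9 lower, and of 9 mRNA processing genes 2 were higher and 4 lower, Cpsf3, the nuclease that cuts histone pre-mRNA, by -2.03. Epiblast markers, 8 of 8 detected in both EpiSC lines, summed to 10600 in EpiT9, 17200 in EpiE3 and 5750 to 9190 in ESC. Pluripotent cell markers, 9 of 9 detected in each, summed to 7150, 11300 and 39000 to 41800. Gonadal somatic markers summed to 1100 in EpiT9, with 3 of 8 detected, 312 in EpiE3, with 2 detected, and 210 to 225 in ESC, and Gata4, Nr5a1, Amh and Lhx9 were detected in none of them. Their part in the histone differences was not tested.

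Primordial germ cells were compared with ESC. The variants Macroh2a1 and H1f10 were higher in PGC11.5, H2az1 and H3f3b were lower, and replication-dependent genes went both ways. Of 43 replication-dependent genes 13 were higher and 14 lower, and of 6 variants 3 were higher and 2 lower, with 68.5% of all genes called, 33.9% higher and 34.6% lower. The medians were -0.08 for replication-dependent genes and -0.02 for all genes. By family, H2A had 6 higher and 3 lower of 12, H2B 3 and 1 of 9, H3 2 and 5 of 9, and H4 none higher and 4 lower of 10. Here too the ESC mean includes ESCf, where most H2B, H3 and H4 genes were higher than in ESCm. Non-overlapping arrays were seen for 10 histone genes higher and 12 lower, against 32.6% and 32.7% of all genes. With median scaling 26 were higher and 9 lower, when the median of all genes was 0.73 and that of the replication-dependent genes 0.45, and 59% of all genes were higher and 21.2% lower. H3c7, H2ac8, H3c10 and H3c8, lower here, had a positive difference under that scaling.

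Macroh2a1 stood at 12.00 and 11.85 in PGC11.5, 9.85 and 9.79 in ESCm and 9.47 and 9.68 in ESCf. It was 4.68-fold higher (2.23 ± 0.11, SE, n = 2 and 4, adjusted p = 4.44e-08), and PGC11.5 was the group with its highest level. H1f10 was 2.58-fold higher (1.37 ± 0.18, SE, n = 2 and 4, adjusted p = 8.03e-05) and H3f3a 1.44-fold, a call lost when the line was a random block (adjusted p = 0.144). Both PGC11.5 arrays lay above all 4 ESC arrays in these 3 genes.

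H2az1 stood at 11.99 and 11.82 in PGC11.5 and 12.72 to 12.98 in ESC, or 1.96-fold lower (-0.97 ± 0.07, SE, n = 2 and 4, adjusted p = 9.68e-07). H3f3b stood at 11.30 and 11.31 and at 11.87 to 12.03, or 1.56-fold lower (adjusted p = 3.26e-06). In neither did the arrays overlap, so the 2 genes of H3.3 moved in opposite directions. H2ax was not called (0.18, adjusted p = 0.108), except without PGC11.5 replicate 2 (0.32, adjusted p = 0.00474).

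Of the replication-dependent genes, H2bc4 was 3.60-fold lower (-1.85 ± 0.11, SE, n = 2 and 4, adjusted p = 2.57e-07), at 6.56 and 6.45 in PGC11.5. The mean of its probes, the second of them detected on no array, differed by -1.03. H4c6 was 2.39-fold, H2ac21 2.34-fold and H3c14 2.00-fold lower, although the second H3c14 probe differed by 0.96 (adjusted p = 0.00167). The mean of H4c6 was 7.43 in PGC11.5, 7.94 in ESCm and 9.44 in ESCf. For H2ac21 these means were 8.71, 9.71 and 10.16, and for H3c14 they were 10.03, 10.93 and 11.13. H1f5, an H1 gene, was 2.24-fold higher. H2bc7 was 2.03-fold higher, but not when the line was a random block (adjusted p = 0.0776). H2ac12, H2ac15, H3c6 and H3c4 were 1.5-fold to 1.65-fold higher.

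The PGC11.5 arrays differed from each other. Replicate 1 detected 27 and replicate 2 detected 35 of the 43 replication-dependent genes. H2ac4 stood at 4.5 on replicate 1, undetected, and 6.67 on replicate 2, and H4c4 at 4.43 and 6.08. Blood and endothelial markers summed to 1930 to 25300, with 2 of 6 detected on both arrays and Lyz2, Cd34 and Kdr on neither, and the germ cell markers to 11800 to 15000, with Prdm1 and Mael undetected. The part of blood cells was not tested. Leaving out 1 array gave 30 to 40 calls, and a random block for the line 14.

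In PGC11.5, 10 of 24 S-phase genes were higher and 10 lower, and 9 of 20 chaperone genes were higher, led by Asf1b, which hands H3 and H4 to the replication fork (1.71), and 4 lower, led by Anp32e (-1.22). Of 9 mRNA processing genes 3 were higher, with Hinfp, the activator of H4 genes, at 2.27, and 4 were lower, with Cpsf3 at -2.27.

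EG cells were compared with ESC and with PGC11.5, across the divide between the arrays, and so with that divide included. Both comparisons share the EG arrays, and the first shares the ESC arrays with those above. Against ESC, 3 of 43 replication-dependent genes were higher and 34 lower, and of 6 variants 1 was higher and 3 lower, with 72.9% of all genes called, 43.8% higher and 29% lower. Against PGC11.5, 6 and 27 replication-dependent genes and 1 and 5 variants were higher and lower, with 72.4% of all genes called, 44.3% higher and 28.1% lower. Non-overlapping arrays were seen for 4 histone genes higher and 37 lower against ESC (46.9% and 31.5% of all genes) and 7 and 33 against PGC11.5 (49.7% and 32.7%). The median for replication-dependent genes was -1.65 and -1.03, and for all genes 0.21 and 0.26. With median scaling the second comparison gave 4 higher and 44 lower, with a median of -1.94 for replication-dependent histones and -0.71 for all genes, and 23.1% of all genes higher and 52.5% lower.

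The largest differences were in H2A genes. H2ac7 stood at 4.48 and 4.54 in EG, undetected, at 12.93 to 13.26 in ESC and at 13.49 and 13.49 in PGC11.5. It was at least 152-fold lower in EG than in ESC (adjusted p = 3.13e-13) and at least 203-fold lower than in PGC11.5 (adjusted p = 7.99e-13). H2ac15 and H2ac12 were at least 142-fold and 112-fold lower than in ESC. H2ac10, H2ac20, H2ac22 and H2ac24, which EG arrays did detect, were 12.8-fold to 47-fold lower than in ESC.

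**Figure D5:**
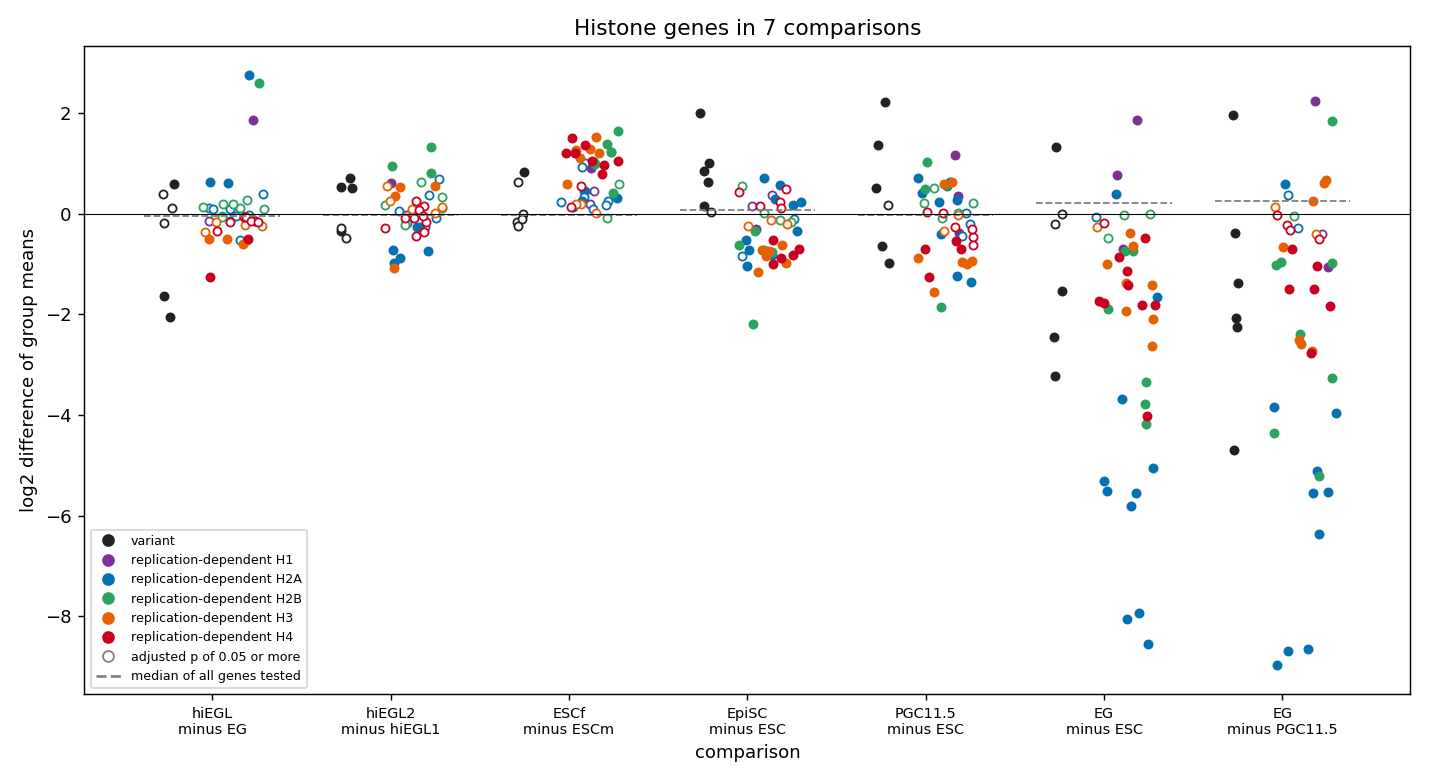
Log2 difference of group means (vertical axis) for each of the 49 tested histone genes (points, coloured by class and family, filled where the adjusted p is under 0.05) in 7 comparisons, with the median of all genes tested as a dashed line. H2B, H3 and H4 genes lie mostly above the dashed line in ESCf minus ESCm, and both EG comparisons on the right, across the array divide, extend to -8.55 and -8.97.

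Few histones ran the other way. H1f2 was 3.62-fold higher in EG than in ESC (1.86 ± 0.13, SE, n = 2 and 4, adjusted p = 6.32e-07) and 4.74-fold higher than in PGC11.5 (adjusted p = 3.8e-07). H3f3b stood at 13.29 and 13.26 in EG and was 2.51-fold higher than in ESC (1.33 ± 0.06, SE, n = 2 and 4, adjusted p = 1.47e-08) and 3.91-fold higher than in PGC11.5. H1f5 was 1.69-fold higher than in ESC, and H2bc4 3.58-fold higher than in PGC11.5. H2ac18 was called higher in both without detection in any of the 3 groups. Against PGC11.5, H3c8 was also called higher and H4c2 lower without detection on either side.

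H2az1 was 9.39-fold lower in EG than in ESC and 4.78-fold lower than in PGC11.5, and Macroh2a1 5.51-fold and 25.8-fold lower. H3f3a was 2.91-fold and 4.19-fold lower. H1f10 differed from ESC by 0.00 (adjusted p = 1) at the probe that every array detected and by -1.97 at the second. Against PGC11.5 it was 2.58-fold lower (-1.37, adjusted p = 0.000197), and its second probe, not detected in EG, differed by -3.66. H2ax was not called against ESC (-0.20, adjusted p = 0.0851), except with median scaling (-0.46, adjusted p = 0.000417) or when only the EG and ESC arrays were fitted (0.0193). Against PGC11.5 it was 1.3-fold lower (adjusted p = 0.00949), a call lost without EG replicate 1 (0.0534) or when only the EG and PGC11.5 arrays were fitted (0.0514). Chaperones split in both comparisons, 8 higher and 9 lower of 20 against ESC and 7 and 9 against PGC11.5, and S-phase genes split as well, 8 and 12 of 24 and 14 and 8. The processing genes had 3 higher and 1 lower of 9 against ESC and 5 and 3 against PGC11.5.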

How the data were processed

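The authors deposited, per the file headers, a probe intensity that is not log-transformed and a detection p-value for each of 25697 probes on 14 arrays. The authors' second deposited table holds normalized log2 values, used here for comparison only. BeadStudio 3.2, lumi and RMA are named, per the submitters' processing notes. The genome build of the probes is not given in the sources used here. Of the probes, 23978 had 1 gene listed and 1719 none.

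Intensities were background-corrected from the detection p-values, raised by an offset of 16, quantile normalized and log2-transformed by the neqc function (limma 3.58.1, R 4.3.3). A gene was read from its brightest probe and kept for testing if 2 or more arrays detected it, with 0.01 as the limit on the detection p (9054 genes). A model with a mean for each of 8 groups (6 residual degrees of freedom, 9.76 after moderation with a trend) gave contrasts in which lines weigh equally, called at a Benjamini-Hochberg adjusted p under 0.05 over all genes tested. The SE is the moderated one. Where 1 side was not detected, the fold is a lower bound against the higher of the dim probe and the lowest detected signal of each array, and none is given where the bound is under 1. The procedure was tested on simulated data. Promoters were searched with Python 3.11.15, pandas 2.3.3 and numpy 2.4.6, and figures drawn with matplotlib 3.10.9.

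Named were every tested variant, the replication-dependent genes called in a comparison, the 10 largest with statistics or by range, up to 3 rises and 3 falls of each accompanying list, and, beyond that rule, genes singled out after their values were seen for detection pattern, position beside another gene, missing calls or disagreement of probes. Classes follow the symbols. The accompanying lists were histone mRNA processing, chaperones, S phase, histones outside the symbol rule, and markers of pluripotent, epiblast, germ, gonadal somatic, fibroblast and blood cells. Members and lists were chosen with earlier results of these data known. Results were recomputed from the authors' values, without background correction, with median scaling, with other filters and probes, on the compared arrays alone, with replicate number or line as a block, at 2-fold, and without each array in turn. Arrays of the same replicate number did not deviate together, since the correlation of their replicate differences was -0.027 to 0.0309 over 15 pairs of groups.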

Additional observations from a re-analysis of the deposited data

Results flagged for a closer look

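In 4 histone genes the hypoxia-derived lines lay on opposite sides of EG, and the difference between the lines was itself called by limma. H2ac10 was 0.57 above EG in hiEGL1 and differed from EG by -0.32 in hiEGL2, a difference between the lines of -0.89 on the log2 scale (adjusted p = 9.23e-05). H2ac22 differed from EG by 0.32 and -0.41, and between the lines by -0.73 (adjusted p = 0.00105). H2ac24 differed by 0.46 and -0.28, and between the lines by -0.74 (adjusted p = 0.00011). H2bc4, an H2B gene, ran the other way, at -0.47 and 0.85 against EG and 1.32 between the lines (adjusted p = 8.25e-05). Both lines were set against the same 2 EG arrays, so their differences from EG are not independent. Each line is 2 arrays. How many of all genes meet the same conditions was not counted. Of all genes, 58.8% were called in hiEGL1 against EG, 59.2% in hiEGL2 against EG and 30% between the lines.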

How the results depend on the processing

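Of 110 counts of histone genes called under alternatives, 93 stayed within 1.5 times the reported count, as did all 16 counts of genes detected. For hiEGL against EG the count of 14 became 26 with median scaling, 6 at 2-fold and 6 with the line as a random block. For hiEGL2 against hiEGL1 the count of 18 became 2 at 2-fold and 11 to 14 without 1 array. For ESCf against ESCm the count of 27 became 14 on the authors' values, 16 at 2-fold and 14 to 15 without 1 array, all higher. For EpiSC against ESC the count of 32 became 5 at 2-fold, 11 with the line as a random block and 19 to 30 without 1 array. For PGC11.5 against ESC the count of 32 became 9 at 2-fold, 14 with the line as a random block and 30 to 40 without 1 array. Leaving out 1 array gave 12 to 14 for hiEGL against EG, 37 to 40 for EG against ESC (41) and 35 to 43 for EG against PGC11.5 (39).

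The share of all genes called moved as well. At 2-fold it went from 61.8% to 30.6% in hiEGL against EG and from 30% to 7.28% between the hiEGL lines. It went from 19.3% to 4.13% in ESCf against ESCm, 62.9% to 28.4% in EpiSC against ESC and 68.5% to 35.9% in PGC11.5 against ESC. With the line as a random block it was 32% for hiEGL against EG, 36.4% for EpiSC and 38.4% for PGC11.5 against ESC. The replicate number as a block gave 13, 18, 25, 32, 33, 40 and 39 calls in the order above with EG against ESC and EG against PGC11.5 last. Replicate numbers do not pair these arrays, since 0 of 15 correlations exceeded 0.1.

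Of the differences of named genes, 1619 kept their side of the threshold, 110 missed it and 14 newly passed it. A further 13 changed sign with a call in the reported or the alternative fit. Changes of sign without a call in either fit are counted among the 1619. Median scaling turned H3c8 (0.19) and H3c3 (0.28) in hiEGL against EG, H3c10 (0.07) in hiEGL2 against hiEGL1, and H3c7 (0.31), H2ac8 (0.21), H3c10 (0.07) and H3c8 (0.81) in PGC11.5 against ESC. The second brightest probe turned H3f3a in hiEGL against EG (0.05) and EpiSC against ESC (-0.21), H3c14 in EpiSC against ESC (0.48) and PGC11.5 against ESC (0.96), and gave -1.97 for H1f10 in EG against ESC, where the mean of its probes gave -0.98. The cause was not tested. At most 2 arrays a group limit every value, and EG and hiEGL arrays have a higher detection floor and a lower brightest signal than ESC arrays, so an undetected histone there is not shown to be absent.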

Other observations

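Histone genes that the symbol rule leaves out were measured too, and 4 were tested. Cenpa, the centromeric H3 variant, was higher than in ESC in EpiSC (0.57, adjusted p = 0.000258), in PGC11.5 (0.62, adjusted p = 0.000104) and in EG (0.24, adjusted p = 0.03) by limma, and did not pass the test between ESCf and ESCm (-0.09, adjusted p = 0.631) or between hiEGL and EG (0.20, adjusted p = 0.0683). H2aj, an H2A variant, was lower in ESCf than in ESCm (-1.04, adjusted p = 0.00123), where replication-dependent H2A genes were called only higher, and lower in hiEGL than in EG (-1.55, adjusted p = 3.06e-06). H2al2a, a testis H2A, was higher than in ESC in EG (1.41, adjusted p = 0.000189) and PGC11.5 (0.93, adjusted p = 0.00317), and H4f16, an H4 gene, was called in none of the 7 comparisons.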
